A study of Homo sapiens with 24 samples.

Results

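*NKX2-1* and 8 genes used with it as markers of the ventral forebrain (*SFTA3*, *LHX6*, *LHX8*, *NKX2-2*, *NKX6-2*, *ISL1*, *OLIG1* and *OLIG2*) were followed during neural induction of *ROR2* KD cells and control cells. These 9 genes were chosen by symbol, out of 33616 genes measured by at least 1 transcript cluster with a single gene symbol. Where a gene had more than 1 such cluster, the one with the highest average on the 24 arrays was used. *ROR2* KD cells were R-2A (HiPS-RIKEN-2A) hiPSCs with a lentiviral shRNA against *ROR2*, a receptor for noncanonical WNT ligands, and control cells were hiPSCs of the same line with a non-mammalian shRNA. Both lines were selected with puromycin, and RNA was taken from undifferentiated cells (day 0) and on days 7, 14 and 21 of monolayer culture with the STEMdiff SMADi Neural Induction Kit, with 3 biological replicates per line and day on Clariom D arrays. The labels name 1 line per shRNA and do not tell separately transduced cultures apart, so the p-values measure the spread between replicates, and other differences between the 2 lines cannot be told apart from the knockdown. Which of the study's shRNAs against *ROR2* was used on the arrays is not given in the sources used here.

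NKX2-1 is a homeodomain protein that sets up the medial ganglionic eminence (MGE) and parts of the preoptic area and hypothalamus, and it is also made in thyroid and lung. Sonic hedgehog signaling from the ventral midline induces it in the embryonic forebrain, and NKX2-1 in turn switches on *LHX6* and *LHX8*, LIM homeobox genes of MGE neurons. LHX6 guides cortical and striatal interneurons, LHX8 specifies cholinergic neurons of the basal forebrain, and ISL1 marks striatal projection neurons, cholinergic neurons and motor neurons. OLIG1 and OLIG2 are bHLH proteins of ventral progenitors and the oligodendrocyte lineage, whereas NKX2-2 and NKX6-2 are homeodomain proteins of the ventral neural tube that also act in oligodendrocytes.

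In RefSeq (GRCh38.p14), *NKX2-1* lies on the minus strand of chromosome 14 at chr14:36516397-36520232, and *SFTA3*, annotated as a long noncoding RNA, lies on the same strand at chr14:36473288-36519556. The 2 genes share 3160 bases, so signal from either transcript over that stretch cannot be told apart by strand, and which probes lie there was not tested. A further transcript, *NKX2-1-AS1*, overlaps *NKX2-1* by 955 bases. *NKX2-1* has 2 annotated starts, 676 bases apart, and the start nearer the 3′ end of the gene (base 36519556) is also a start of *SFTA3*. The 250 bases before each of these starts are shown because both genes moved together in the arrays, and those before the start of *ISL1* (chr5:51383198-51383447, plus strand) because that gene moved the other way. Capitals mark letters that match CAAGTG, the core bound by NK2 homeodomain proteins such as NKX2-1, or TAATTA, a core bound by LIM and DLX homeodomain proteins. The windows are chr14:36519557-36519806 for the start that *NKX2-1* and *SFTA3* share and chr14:36520233-36520482 for the other *NKX2-1* start, both read 5′ to 3′ on the minus strand.
NKX2-1 and SFTA3, shared start: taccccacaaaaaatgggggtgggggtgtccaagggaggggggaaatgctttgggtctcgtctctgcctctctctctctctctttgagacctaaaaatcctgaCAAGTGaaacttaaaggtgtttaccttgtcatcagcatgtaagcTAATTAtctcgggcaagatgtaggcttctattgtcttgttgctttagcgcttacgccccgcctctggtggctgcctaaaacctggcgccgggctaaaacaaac
NKX2-1, other start: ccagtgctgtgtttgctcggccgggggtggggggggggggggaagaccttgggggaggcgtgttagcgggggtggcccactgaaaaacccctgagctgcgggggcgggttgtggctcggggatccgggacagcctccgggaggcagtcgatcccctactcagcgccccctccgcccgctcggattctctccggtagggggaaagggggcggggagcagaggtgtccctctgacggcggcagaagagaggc
ISL1: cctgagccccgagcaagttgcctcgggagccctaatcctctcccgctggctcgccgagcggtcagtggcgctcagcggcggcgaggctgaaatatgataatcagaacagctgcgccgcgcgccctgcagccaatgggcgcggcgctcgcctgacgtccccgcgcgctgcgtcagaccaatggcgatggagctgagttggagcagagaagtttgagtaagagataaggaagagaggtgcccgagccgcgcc
The shared window held 1 match to the NK2 core, beginning at its letter 104, and 1 match to the LIM and DLX core, beginning at letter 148, and these matches do not overlap. It lies inside the span of the longer *NKX2-1* transcript. The other *NKX2-1* window and that of *ISL1* held no match to these letters. Among the windows not shown, the NK2 core was in a window of *LHX8* (letter 37) and in a window of *NKX2-2* (letter 29). *NKX2-2* was not called in any comparison. No window of *LHX6*, which was called lower, held the NK2 core, nor did that of the other *SFTA3* start. The LIM and DLX core was in none of the windows not shown. Of 34941 promoters of the same length, searched on both strands, 9.51% held the NK2 core and 4.35% held the LIM and DLX core. CCACCCA, the core of GLI sites through which hedgehog signaling acts, was in none of the 3 windows shown and in 8.19% of all promoters. The shared window had 7 CpG and 49.6% G and C, the other *NKX2-1* window had 18 CpG and 70.8%, and the *ISL1* window had 27 CpG and 65.2%, against medians of 11 CpG and 58% over all promoters. A match describes letters only and was not tested as a binding site. Windows were matched by symbol for 6 of the 9 genes, the others being *NKX6-2*, *OLIG1* and *OLIG2*.

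All signals below are deposited log2 values, in which a difference of 1 is a 2-fold change, and levels are compared within a gene and never between genes. Changes were called where the adjusted p was under 0.05 and the change was larger than 2-fold (limma, Benjamini-Hochberg over 135750 transcript clusters). As background level, the 95th percentile of 23 background probe sets was taken on each array, and it lay between 7.30 and 9.97. This is above every array median, so a signal under the level is not shown to be absent and can still differ between groups. On day 14 the level was 7.76 to 8.07 in *ROR2* KD cells and 8.54 to 8.87 in control cells, and on day 21 it was 7.30 to 8.32 in *ROR2* KD cells and 8.29 to 8.39 in control cells. Where 1 of 2 groups was under this level on all 3 arrays, a lower bound of the fold change set against that level is given beside the call if it is over 1. Where both groups were under it, log2 values describe signals not above background and give no fold. Array medians lay between 4.26 and 4.51, mean correlations of an array with the others of its group between 0.96 and 0.99, and no array was identical to another. In whole cultures, fewer cells of a type and less RNA per cell cannot be told apart.

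*ROR2* itself averaged 5.29 ± 0.71 in *ROR2* KD cells and 7.81 ± 0.19 in control cells on day 0 (SD, n = 3 each). It was called lower in *ROR2* KD cells on days 0, 7 and 14, with log2 differences of -2.51, -2.62 and -2.56. Control cells of day 7 were the only group in which *ROR2* was above background, on 3 of 3 arrays, and the difference of that day is at least 1.997-fold against the background level. On days 0, 14 and 21 all arrays of both lines were under it, so that the size of the knockdown is not measured there. On day 21 it averaged 3.57 ± 0.17 in *ROR2* KD cells, against 4.45 ± 0.20 in control cells, a difference of -0.89 that was not called (adjusted p = 0.0823, limma).

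None of the 9 genes was called between *ROR2* KD and control cells on day 0, when 0.0803% of all genes were called, or on day 7, when 0.277% were. With limma at an unadjusted p under 0.05 and no fold threshold, 1 gene (*NKX6-2*) passed on day 0 and 0 on day 7. The methods' t-test with the 2-fold threshold gave 0 on both days, with or without adjustment. The largest differences were -0.68 (*NKX6-2*, day 0) and 0.70 (*ISL1*, day 7), so that count was 0 whatever the p. On day 14, 2 of 9 genes were called, both lower (*NKX2-1* and *SFTA3*), against 1.7% of all genes in either direction and 0.77% lower. On day 21, 7 of 9 were called, with 6 lower and 1 higher, against 4.67% of all genes in either direction, 2.51% lower and 2.16% higher. The 6 lower genes were *NKX2-1*, *SFTA3*, *LHX6*, *LHX8*, *OLIG1* and *OLIG2*, and *ISL1* was higher. The median log2 difference of the 9 genes was -0.22 on day 14 and -4.09 on day 21, where the median of all genes was -0.03 and -0.02. The arrays of the 2 lines did not overlap for 3 of the 9 genes on day 14 and for 7 on day 21, against 22.5% and 23.5% of all genes.

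**Figure D1:**
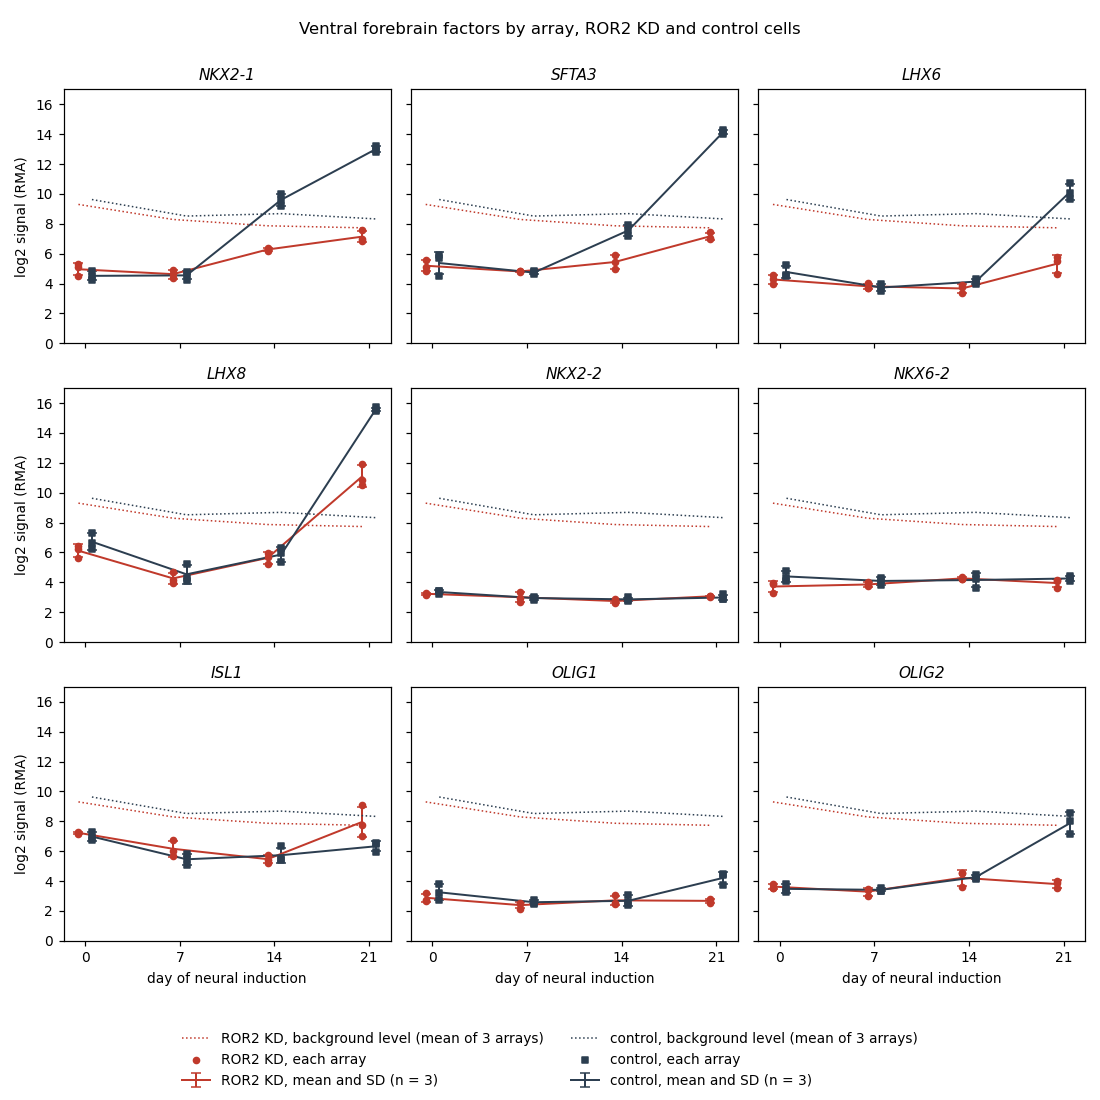
Log2 signal of each of the 9 genes (y axis) against day of neural induction (x axis), with every array as a point, group means with SD (n = 3) as lines, and the mean background level as a dotted line for *ROR2* KD (red circles) and control cells (dark squares). *NKX2-1* separated the lines from day 14 on, *SFTA3*, *LHX6*, *LHX8* and *OLIG2* stood farthest apart on day 21, and *NKX2-2* and *NKX6-2* stayed under the background level throughout.

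*NKX2-1* was under background in both lines at the start. On day 0 it averaged 4.96 ± 0.41 in *ROR2* KD cells and 4.52 ± 0.31 in control cells, and on day 7 it averaged 4.63 ± 0.29 in *ROR2* KD cells and 4.55 ± 0.27 in control cells (SD, n = 3 each), with overlapping arrays on both days. On day 14 the 3 *ROR2* KD arrays read 6.35, 6.32 and 6.17, against 9.18, 9.63 and 10.02 in control cells. All control arrays were above their background level and all *ROR2* KD arrays under it. The log2 difference was -3.33 (SE 0.26, adjusted p = 3.14e-08, limma), a 10.04-fold lower measured signal and at least 3.34-fold lower against the background level. On day 21 the *ROR2* KD arrays read 7.56, 7.02 and 6.86, and the control arrays read 13.22, 12.96 and 12.82. Every *ROR2* KD array of day 21 was thus lower than every control array of day 14. The difference on day 21 was -5.86 (95% interval -6.40 to -5.32, adjusted p = 7.06e-13), which is 58.0-fold as measured and at least 38.5-fold.

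*NKX2-1* was called higher on day 14 than on day 7 in both lines, but it passed the background level in control cells alone. The *ROR2* KD arrays of all 4 days were under it, so their steps and their order give no fold above background. In *ROR2* KD cells the signal of day 14 was 1.65 higher than that of day 7 (SE 0.26, adjusted p = 0.000157), and the signal of day 21 was a further 0.86 higher (adjusted p = 0.0455), 1.82-fold as measured, which missed the fold threshold. In control cells the steps were 5.06 and 3.39 on the log2 scale (adjusted p = 4.88e-12 and 4.97e-09), of which the first is at least 2.12-fold against the day 7 background level. Ordered by mean, *NKX2-1* was highest in control cells of day 21, then in control cells of day 14, *ROR2* KD cells of day 21 and *ROR2* KD cells of day 14. No arrays of neighbors among these 4 groups overlapped. The arrays of days 0 and 7 in both lines formed the low end, between 4.24 and 5.28, and overlapped each other. The *ROR2* KD difference itself changed by -3.41 between days 7 and 14 (SE 0.37, adjusted p = 1.53e-05) and by -2.53 between days 14 and 21 (SE 0.37, adjusted p = 0.000459).

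*SFTA3*, the noncoding neighbor of *NKX2-1*, was lower in *ROR2* KD cells on the same days as *NKX2-1* and was above background in control cells of day 21 only. On day 0 it averaged 5.19 ± 0.38 in *ROR2* KD cells and 5.38 ± 0.75 in control cells, and the arrays overlapped on days 0 and 7. On day 14 the *ROR2* KD arrays read 5.93, 4.97 and 5.44, against 7.93, 7.56 and 7.20 in control cells. The groups did not overlap, although all 6 arrays were under their background level, so the called difference of -2.12 (SE 0.30, adjusted p = 0.00025) gives no fold above background. On day 21 the *ROR2* KD arrays read 7.43, 6.99 and 7.04 and the control arrays 14.27, 14 and 14.12. All 3 control arrays were far above background and all 3 *ROR2* KD arrays under it. The difference was -6.98 (SE 0.30, adjusted p = 4.57e-13), 126-fold as measured and at least 84.4-fold, the largest of the 9 genes on any day.

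Between days 14 and 21 *SFTA3* increased by 1.71 in *ROR2* KD cells (adjusted p = 0.000579) with all arrays under background, and by 6.57 in control cells (adjusted p = 7.35e-13), at least 43.7-fold, and the difference between these changes was -4.86 (adjusted p = 3.64e-07). Between days 7 and 14 it was 0.63 higher in *ROR2* KD cells (adjusted p = 0.255, not called) and 2.83 higher in control cells (called), under background in both lines. *NKX2-1-AS1*, the antisense transcript at the same locus, stood at 3.89 ± 0.16 in *ROR2* KD cells and 4.85 ± 0.36 in control cells on day 14, a difference of -0.96 that was not called (adjusted p = 0.0908). On day 21 it was at 4.58 ± 0.65 in *ROR2* KD cells and 8.16 ± 0.15 in control cells, 3.58 lower on the log2 scale (adjusted p = 1.21e-09), with all arrays of both lines under background. Over the 24 arrays *SFTA3* correlated with *NKX2-1-AS1* at r = 0.98 and with *NKX2-1* at r = 0.94. These correlations describe arrays that share line and day.

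*LHX6* and *LHX8*, the 2 LIM homeobox genes of MGE neurons, separated the lines a week later than *NKX2-1*. On day 14 *LHX6* read 3.75, 3.35 and 3.91 in *ROR2* KD cells and 4.29, 3.99 and 4.10 in control cells. These arrays did not overlap, but they were all under background and the difference of -0.46 (95% interval -1.07 to 0.15) was not called (adjusted p = 1). On day 21 *LHX6* read 5.78, 4.66 and 5.53 in *ROR2* KD cells, against 10.07, 10.74 and 9.65 in control cells. The control arrays were all above background and the *ROR2* KD arrays all under it. The difference was -4.83 (SE 0.30, adjusted p = 1.50e-10), 28.4-fold as measured and at least 5.34-fold. The step between days 14 and 21 was 1.66 in *ROR2* KD cells (adjusted p = 0.000678) and 6.02 in control cells (adjusted p = 2.22e-12). The *ROR2* KD arrays of both days were under background, and the control step is at least 2.77-fold.

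With these clusters, *LHX8* was the only one of the 9 genes above background in *ROR2* KD cells on all 3 arrays of a day. On day 14 it read 5.68, 5.23 and 5.99 in *ROR2* KD cells and 5.95, 6.28 and 5.34 in control cells, which overlapped (difference -0.22, 95% interval -0.99 to 0.54, adjusted p = 1). On day 21 it read 11.92, 10.53 and 10.83 in *ROR2* KD cells, against 15.72, 15.51 and 15.50 in control cells. The groups stood well apart, and both were above background on 3 of 3 arrays. The difference was -4.48 (SE 0.37, adjusted p = 2.49e-08), a 22.4-fold lower signal. *LHX8* thus rose in both lines in the last week, by 5.46 in *ROR2* KD cells (adjusted p = 7.52e-10) and by 9.72 in control cells (adjusted p = 3.77e-14), which against the day 14 background level is at least 9.36-fold in *ROR2* KD cells and at least 119-fold in control cells. The change in the *ROR2* KD difference between days 14 and 21 was -4.26 for *LHX8* (adjusted p = 5.03e-05) and -4.37 for *LHX6* (adjusted p = 1.29e-06).

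**Figure D2:**
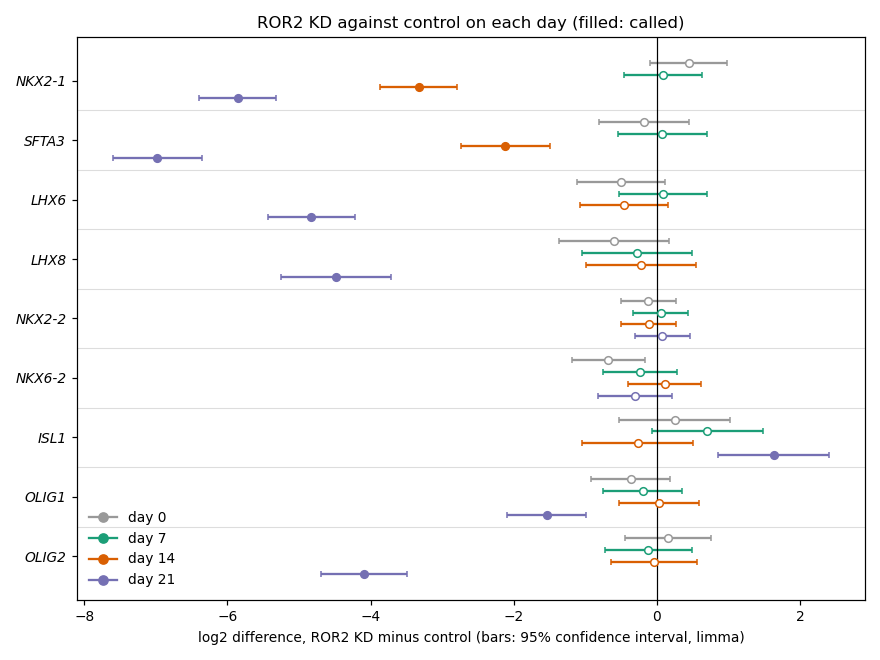
Log2 difference between *ROR2* KD and control cells (x axis, with 95% confidence intervals from limma) for each of the 9 genes (y axis) on days 0, 7, 14 and 21, with filled points for called differences. *NKX2-1* (-3.33) and *SFTA3* (-2.12) were called on day 14, and on day 21 only *NKX2-2* and *NKX6-2* of the 9 were not called.

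*OLIG2* and *OLIG1*, neighboring genes on chromosome 21 (chr21:33025935-33029185 and chr21:33070141-33072413), were called between the lines on day 21 and on no other day. *OLIG2* read 3.89, 3.51 and 3.99 in *ROR2* KD cells on that day, against 7.99, 8.53 and 7.14 in control cells. The groups did not overlap, yet the signal exceeded background on only 1 of the 3 control arrays and on none of the *ROR2* KD arrays. The difference was -4.09 (SE 0.29, adjusted p = 1.86e-09), 17.1-fold as measured but at least 1.11-fold against the background level. In *ROR2* KD cells *OLIG2* was 0.42 lower on day 21 than on day 14 (adjusted p = 0.459, not called), whereas in control cells it was 3.63 higher (adjusted p = 1.02e-08, with no fold above the day 14 background level), and these changes differed by -4.05 (adjusted p = 3.03e-06). *OLIG1* read 2.81, 2.53 and 2.68 in *ROR2* KD cells and 4.39, 4.49 and 3.75 in control cells on day 21. All of these arrays were under background. Its difference was -1.54 (SE 0.27, adjusted p = 0.000966), for which no fold above background can be given. On days 0, 7 and 14 neither gene was called and the arrays of the 2 lines overlapped.

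*NKX2-2* and *NKX6-2* were under background on all 24 arrays and were not called in any comparison. *NKX2-2* lay between 2.63 and 3.43 over all arrays, and its day 21 difference was 0.08 (95% interval -0.31 to 0.46). *NKX6-2* lay between 3.29 and 4.78, with a day 21 difference of -0.31 (95% interval -0.82 to 0.20). On day 0 its arrays did not overlap, at 3.90, 3.29 and 3.95 in *ROR2* KD cells and 4.32, 4.09 and 4.78 in control cells, as was the case for 16% of all genes. That difference of -0.68 was not called (adjusted p = 0.337).

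*ISL1* (chr5:51383448-51394730) had 2 transcript clusters with its symbol, which gave different values, and the other 8 genes had 1 cluster each. The cluster with the highest mean (6.41), which has no Entrez gene ID in the annotation, read 7.78, 9.06 and 7.05 in *ROR2* KD cells on day 21 and 6.45, 5.96 and 6.57 in control cells. These groups did not overlap, and 1 of the 6 arrays, of *ROR2* KD cells, was above background. The difference was 1.63 (SE 0.37, adjusted p = 0.015), with no fold above the background level of control cells, and it fell to 1.09 without replicate 2 of *ROR2* KD day 21 (adjusted p = 0.143) and to 1.45 without replicate 2 of control day 21 (adjusted p = 0.0962), where the call was lost. It was also lost when only the 6 arrays of day 21 were fitted (adjusted p = 0.235). On day 14 this cluster differed by -0.27 (95% interval -1.04 to 0.51).

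The other *ISL1* cluster (mean 5.596), which the annotation pairs with the Entrez gene ID, separated the lines a week earlier and more widely. On day 14 it read 6.86, 6.59 and 7.09 in *ROR2* KD cells and 3.93, 4.27 and 3.98 in control cells, a difference of 2.78 (SE 0.29, adjusted p = 3.53e-06) with all 6 arrays under background. On day 21 it read 11.86, 12.09 and 11.47 in *ROR2* KD cells, against 7.17, 6.68 and 6.66 in control cells. All *ROR2* KD arrays were above background and all control arrays under it. The difference was 4.97 (SE 0.29, adjusted p = 8.00e-11), 31.4-fold as measured and at least 11.1-fold higher in *ROR2* KD cells. In *ROR2* KD cells this cluster increased by 3.56 between days 7 and 14 and by 4.96 between days 14 and 21 (the second at least 15.3-fold), and in control cells it increased by 0.51 (not called, adjusted p = 0.585) and by 2.77 (called).

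**Figure D3:**
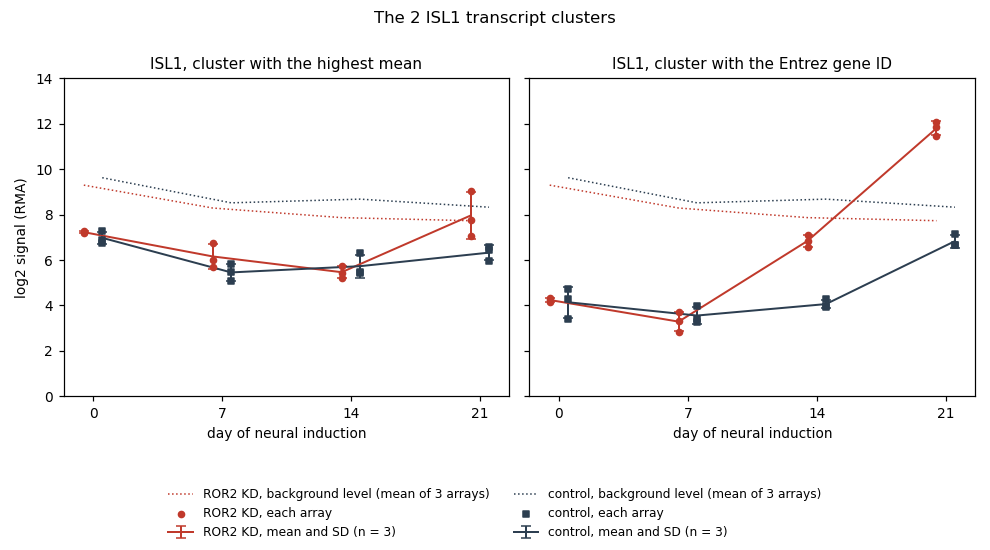
Log2 signal of the 2 *ISL1* transcript clusters (y axis) against day of neural induction (x axis), with every array as a point, means with SD (n = 3) as lines and the mean background level dotted, for *ROR2* KD (red circles) and control cells (dark squares). The cluster with the Entrez gene ID stood 2.78 higher in *ROR2* KD cells on day 14 and 4.97 higher on day 21, while the cluster with the highest mean differed by -0.27 and 1.63.

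Within each line, the 9 genes followed the days as follows. Between days 0 and 7, 2 of 9 were called lower in *ROR2* KD cells, where 14.8% of all genes were called lower, and 3 of 9 in control cells, where 17.4% were. All of these arrays were under background, and the background level itself was lower on day 7 than on day 0, at 8.11 to 8.57 against 8.96 to 9.69 in *ROR2* KD cells and at 8.42 to 8.63 against 9.41 to 9.97 in control cells. Its part in these calls was not tested. *LHX8* fell by 1.86 in *ROR2* KD cells (adjusted p = 0.000513) and fell by 2.19 in control cells (adjusted p = 7.31e-05). The cluster of *ISL1* with the highest mean also fell by 1.07 in *ROR2* KD cells (adjusted p = 0.0382) and fell by 1.52 in control cells (adjusted p = 0.00348). The first of these calls was lost, at adjusted p up to 0.145, when any of 5 arrays was left out (each *ROR2* KD array of day 0, and replicates 1 and 3 of day 7), where the values were -1.10 to -0.85. *LHX6* fell by 1.04 in control cells (adjusted p = 0.0111), and that call was lost without replicate 1 of control day 0 (-0.80) or replicate 1 of control day 7 (-0.92). The change of the *ROR2* KD difference of *LHX6* between these days was 0.58 and was not called (adjusted p = 0.703).

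Between days 7 and 14, 2 of 9 rose in *ROR2* KD cells (*NKX2-1* and *LHX8*), where 5.16% of all genes were called higher, and 3 of 9 rose in control cells (*NKX2-1*, *SFTA3* and *LHX8*), where 3.97% were. *LHX8* rose by 1.37 in *ROR2* KD cells (adjusted p = 0.025) and by 1.33 in control cells (adjusted p = 0.0436), entirely under background. The call in *ROR2* KD cells was lost without replicate 1 or 2 of day 7 (1.33 and 1.22) or replicate 1 or 3 of day 14 (1.35 and 1.19) of that line. The call in control cells was lost without replicate 1 or 3 of day 7 (1.10 and 1.19) or replicate 1 or 2 of day 14 (1.28 and 1.11). *OLIG2* was 0.93 higher on day 14 in *ROR2* KD cells (adjusted p = 0.0599) and 0.85 higher in control cells (adjusted p = 0.136), neither of which was called. Between days 14 and 21, 4 of 9 rose in *ROR2* KD cells (*SFTA3*, *LHX6*, *LHX8* and *ISL1*), where 3.21% of all genes were called higher, and 6 of 9 rose in control cells (*NKX2-1*, *SFTA3*, *LHX6*, *LHX8*, *OLIG1* and *OLIG2*), where 2.64% were. Of the 4 in *ROR2* KD cells, *LHX8* exceeded background in each of the 3 day 21 arrays, *ISL1* in 1 (at least 1.07-fold), and *SFTA3* and *LHX6* were under it on every array of both days. Of the 6 in control cells, *OLIG2* passed it on 1 array of day 21 and *OLIG1* on none.

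The change of the *ROR2* KD difference between neighboring days was tested as well. Between days 0 and 7 it was called for none of the 9 genes with limma (0 also at an unadjusted p under 0.05), where 0.0744% of all genes were called. Between days 7 and 14 it was called lower for 2 of 9 (*NKX2-1* and *SFTA3*), where 0.327% of all genes were. The call of *SFTA3* was lost when any of 7 single arrays was left out (-2.20 to -1.95), with quantile normalization (-2.005) and without the 4 arrays with the highest medians (-2.23), where the count is 1. Between days 14 and 21 it was called lower for 5 of 9 (*NKX2-1*, *SFTA3*, *LHX6*, *LHX8* and *OLIG2*), where 0.55% were. *OLIG1* (-1.57, adjusted p = 0.0737) and the *ISL1* cluster with the highest mean (1.90, adjusted p = 0.191) missed the threshold in that last step.

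**Figure D4:**
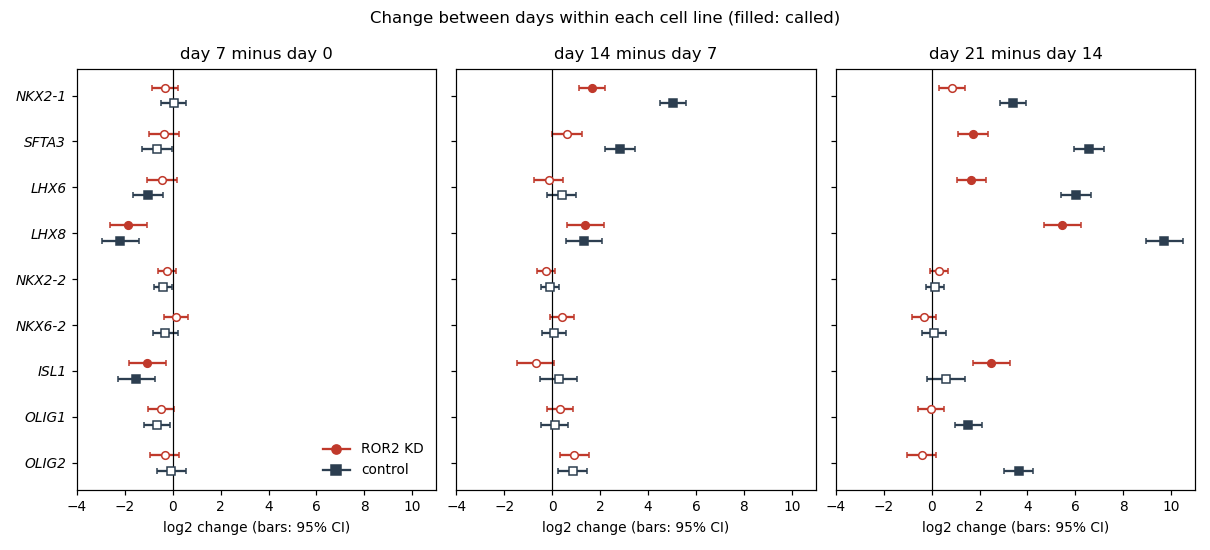
Log2 change between neighboring days within *ROR2* KD cells (red circles, upper of each pair) and control cells (dark squares, lower) for the 9 genes, with 95% confidence intervals on the x axis and filled points for called changes. Between days 14 and 21 *LHX8* rose by 5.46 in *ROR2* KD cells and 9.72 in control cells, and *OLIG2* changed by -0.42 in *ROR2* KD cells and 3.63 in control cells.

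The genes of related regions and pathways, from lists that leave out the 9 genes, did not all move the same way. Beside the counts of every list stand the shares over all genes. On day 14, 0.934% of all genes were called higher and 0.77% lower, and on day 21, 2.16% were called higher and 2.51% lower. Of 12 measured genes of the MGE and its neuron lineages, 3 were higher (*MAF*, *ZEB2* and *ERBB4*) and 2 lower (*ETV1* and *LHX5*) in *ROR2* KD cells on day 14, and 2 were higher and 1 lower on day 21. *MAF*, a transcription factor of MGE interneurons, averaged 9.36 in *ROR2* KD cells and 4.80 in control cells on day 21 (difference 4.56, adjusted p = 1.74e-09). *SIX3*, a homeobox gene of the rostral forebrain, was 3.16 higher on the log2 scale, and *GBX2* differed by -1.73. *GBX2* was not above background on at least 2 of 3 arrays in either line on that day. *CHAT*, the acetylcholine-synthesizing enzyme of cholinergic neurons, averaged 4.51 in *ROR2* KD cells and 4.70 in control cells on day 21 and was not called (adjusted p = 0.867). The median of the MGE list on day 21 was -0.16, against -0.02 for all genes. The mean log2 level of this list on day 21 was 8.01 to 8.19 in *ROR2* KD cells and 7.65 to 7.80 in control cells. On day 7 it was 8.31 to 8.56 in *ROR2* KD cells and 8.50 to 8.79 in control cells. *LMO3*, *SATB1* and *ETV1* of this list were above background in both lines on day 0 already. On day 7, when *NKX2-1* was under background in both lines, *MAF*, *ZEB2*, *LHX5* and *SIX3* were above it in both. *MAF* then averaged 9.22 in *ROR2* KD cells and 10.59 in control cells and was not called. Neither the level of this list nor that of *MAF* is therefore a measure of the MGE alone.

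The wider subpallial list, which covers progenitors of the lateral, caudal and medial eminences, had more genes called higher than lower on day 14 and on day 21. Of its 11 measured genes, 6 were higher and 1 (*VAX1*) lower in *ROR2* KD cells on day 14, where 0.934% of all genes were called higher and 0.77% lower. *DLX5* and *DLX1*, homeobox genes of GABAergic precursors, were 6.48 and 6.18 higher on the log2 scale, with means of 12.72 and 12.75 in *ROR2* KD cells and 6.24 and 6.57 in control cells. *DLX2* was 3.69 and *NR2F1*, a nuclear receptor of the caudal eminence, 3.66 higher. *GSX2*, a homeobox gene of lateral eminence progenitors, averaged 9.98 in *ROR2* KD cells and 6.55 in control cells. On day 21, 5 were higher (*SP8*, *DLX6*, *MEIS2*, *DLX1* and *DLX5*) and 1 lower (*SP9*), and *GSX2* averaged 10.60 in *ROR2* KD cells and 10.24 in control cells (adjusted p = 0.796). The list median was 2.96 on day 14 and 0.54 on day 21. Its mean log2 level was 9.78 to 9.92 in *ROR2* KD cells and 7.19 to 7.48 in control cells on day 14, and on day 21 it was 11.05 to 11.29 in *ROR2* KD cells and 10.06 to 10.26 in control cells. The part of these genes in the results on *NKX2-1* was not tested.

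Among 9 measured genes of the floor plate and hedgehog response, 1 was higher (*PTCH1*) and 1 lower (*SPON1*) on day 14, and 2 were lower on day 21. *SPON1*, an extracellular protein of the floor plate, averaged 5.98 in *ROR2* KD cells and 8.13 in control cells on day 14. On that day it was not above background on at least 2 of 3 arrays in either line. On day 21 *SPON1* averaged 5.18 in *ROR2* KD cells and 11.74 in control cells (difference -6.56, adjusted p = 6.95e-13), above background in control cells only. *SHH*, the ligand, averaged 4.56 in *ROR2* KD cells and 5.75 in control cells on day 21 (difference -1.18, adjusted p = 0.0083), under background. *PTCH1*, the receptor and a target of the pathway, was 1.12 higher in *ROR2* KD cells on day 14, and *GLI1*, another target, was not called on day 21 (0.18, adjusted p = 0.907). Of 15 measured genes of the hypothalamus and ventral diencephalon, *SIX6* was lower on day 7, *SIM1* was higher and *FEZF1* lower on day 14, and *SIM1* was higher on day 21. *FEZF1* was the only gene of this list above background on at least 2 of 3 arrays in either line on days 14 and 21.

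In the oligodendrocyte list, which bears on *OLIG1*, *OLIG2*, *NKX2-2* and *NKX6-2*, 0 of 10 measured genes were called with limma on day 14 (2 at an unadjusted p under 0.05) and 1 was lower on day 21. That gene, *SOX8*, averaged 4.29 in *ROR2* KD cells and 5.46 in control cells. *CNP* was above background in both lines on days 14 and 21, *PDGFRA* in *ROR2* KD cells on day 14, and no other gene of the list on at least 2 of 3 arrays on these days. Of the lung and thyroid list (12 measured genes), the motor neuron list (9) and the hindbrain and spinal cord list (6), 0 genes were called with limma and none was above background on at least 2 of 3 arrays on days 14 or 21. At an unadjusted p under 0.05, 1 motor neuron gene passed on day 14, and 0 genes of these 3 lists otherwise passed on these 2 days.

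The other lists served as checks for further cell types in which these factors occur. Of 10 measured telencephalon genes, 2 were higher and 1 lower on day 21, among them *PAX6*, a homeobox gene of dorsal progenitors, at 15.59 in *ROR2* KD cells and 5.01 in control cells, and *OTX2*, a homeobox gene of the forebrain and midbrain, at 11.47 in *ROR2* KD cells and 14.80 in control cells. Of 9 retina genes, *LHX1* was lower on day 21 (3.54 in *ROR2* KD cells and 6.29 in control cells). It was not above background on at least 2 of 3 arrays in either line on any day. Of 8 sensory neuron genes, *EYA1* was lower (6.56 in *ROR2* KD cells and 9.89 in control cells), and of 9 heart and endoderm genes, *MEF2C* was higher (11.91 in *ROR2* KD cells and 6.85 in control cells). Besides *MEF2C*, only *INSM1* of that list was above background on at least 2 of 3 arrays in any group. The call of *MEF2C* alone therefore does not show heart or endoderm cells. Of 7 pluripotency genes, *LIN28B* was lower on day 21 (9.83 in *ROR2* KD cells and 11.08 in control cells). Of 9 neural stem/progenitor genes, *PAX6* and *SOX3* were higher and *NES* lower on day 21. The part of these genes in the results on the 9 genes was not tested.

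The genes whose signals over the 24 arrays were most like those of the 9 genes were taken from 7490 genes whose group means spanned more than 2 on the log2 scale. They were *NTN1* (r = 0.94), *BTBD17*, *VWA5B1*, *ST8SIA4* and *NKX2-1-AS1* for *NKX2-1*. For *SFTA3*, *FOXN4* (r = 0.94) and *LHX1* (r = 0.94) followed *NKX2-1-AS1*. *CDH9*, which encodes a cadherin, ranked first for both *LHX6* (r = 0.96) and *LHX8* (r = 0.96), and *LHX1* ranked first for *OLIG2* (r = 0.95). In no group was *LHX1* above background on at least 2 of 3 arrays. For *OLIG1* the closest gene was *CXCL14* (r = 0.87). The 2 *ISL1* clusters had different neighbors, *KCNMA1* (r = 0.85) for the cluster with the highest mean and *GAD2* (r = 0.98), which encodes a GABA-synthesizing enzyme, for the cluster with the Entrez gene ID. Among the 9 genes, *SFTA3* correlated with *OLIG2* at r = 0.95 and with *LHX6* at r = 0.95, and *LHX6* with *LHX8* at r = 0.93. All of these values are descriptions over arrays that share line and day.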

How the data were processed

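Total RNA of 24 samples (3 biological replicates per line and day) was hybridized to Clariom D arrays. Cells were passaged during the induction, and the sources do not say whether 1 culture gave samples on several days. The fit treated all arrays as independent. The deposited values are log2 signals that the authors made with Transcriptome Analysis Console by RMA, which subtracts background, brings the arrays to 1 distribution and sums up all probes of a transcript cluster in 1 value. RMA alters low signals and equalizes array distributions, so measured folds can be understated or overstated. The direction was not tested. The 138745 probe sets included 2995 array controls, which were removed. The platform annotation gave 1 symbol for 36176 of 135750 clusters, several for 1119 and none for 98455. For a symbol with more than 1 cluster, the cluster of highest average signal stands for the gene.

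The 8 group means were estimated in 1 fit over the 24 arrays (limma 3.58.1 in R 4.3.3, 16 residual and 6.36 prior degrees of freedom), with contrasts of *ROR2* KD minus control per day, of neighboring days per line, and of differences between them. P-values are two-sided and Benjamini-Hochberg adjusted over all clusters. Thresholds of the study were used. For each bound, the brighter group's mean was set against the mean of the higher of background level and signal on each array of the dimmer group. Background is described by the 95th percentile of 23 probe sets, and precision is limited by 3 arrays per group. The fit was tested on simulated data. Members and lists were chosen with earlier results of these data known. Named from the lists are at most 4 called genes per list and day with the largest fold, and *ETV1*, *GSX2*, *VAX1*, *SP9*, *CHAT*, *GLI1*, *CNP*, *PDGFRA* and *INSM1*, and *DLX5* on day 21, were named outside that rule after their values were seen. For likeness, the 5 genes with the highest Pearson correlation were taken. Alternatives were quantile normalization, median centring, array weights, robust moderation, a variance trend, a replicate block, arrays of only the groups compared, a filter on dim clusters, the mean of all clusters of a gene, other thresholds, an equal-variance t-test (not the paper's array method), each array left out, and 2 added after seeing the data (the other *ISL1* cluster, and without the 4 arrays with the highest medians). Promoter windows come from RefSeq.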

Additional observations from a re-analysis of the deposited data

Results flagged for a closer look

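The *ROR2* KD difference changed between neighboring days, by a test of the change itself (limma, adjusted over all clusters), in the following cases. Between days 7 and 14 the change was -3.41 for *NKX2-1* (adjusted p = 1.53e-05), -2.19 for *SFTA3* (adjusted p = 0.0193) and 3.05 for the *ISL1* cluster with the Entrez gene ID (adjusted p = 0.000336). The *SFTA3* call was lost when any of 7 arrays was left out (control day 7 replicates 2 and 3, control day 14 replicates 1 and 2, *ROR2* KD day 7 replicate 2, and *ROR2* KD day 14 replicates 2 and 3), with values of -2.20, -2.15, -2.01, -2.19, -2.18, -1.95 and -2.19 in that order and adjusted p up to 0.0855. Between days 14 and 21 it was -2.53 for *NKX2-1* (adjusted p = 0.000459), -4.86 for *SFTA3* (adjusted p = 3.64e-07), -4.37 for *LHX6* (adjusted p = 1.29e-06), -4.26 for *LHX8* (adjusted p = 5.03e-05), -4.05 for *OLIG2* (adjusted p = 3.03e-06) and 2.19 for the same *ISL1* cluster (adjusted p = 0.00863). These 6 calls of the last step were kept when any single array was left out. The change for *ROR2* itself in the last step was 1.68 (adjusted p = 0.0342), with all arrays of both days under background. Its part in the other changes was not tested.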

How the results depend on the processing

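No called value changed direction under any alternative. Of 286 settings of the counts of genes called, 237 differed from the reported count by less than 1.5 times and 49 by 1.5 times or more, and of 762 settings of single called values, 731 kept the call and 31 lost it. For *ROR2* KD against control, the count of day 14 (2) was 3 with the mean of all clusters and 3 with the other *ISL1* cluster, and 0 with the equal-variance t-test after Benjamini-Hochberg adjustment, and the count of day 21 (7) was 2 with that test and 4 with the filter on dim clusters, which kept 20709 clusters and only 4 of the 9 genes. The same filter gave 4 for control days 14 to 21, 2 for control days 0 to 7 and 1 for *ROR2* KD days 0 to 7. *SFTA3* and *LHX6* passed the filter only through control arrays of day 21, and *NKX2-1* only through control arrays of days 14 and 21. Their calls under it are therefore no separate check. For *ROR2* KD days 7 to 14 (2), median centring, quantile normalization, the mean of all clusters and the other *ISL1* cluster gave 3, and adjusted p under 0.01 and leaving out the 4 arrays with the highest medians gave 1. For control days 7 to 14 (3), quantile normalization, p under 0.01 and leaving out those 4 arrays gave 2. For control days 0 to 7 (3), p under 0.01 and the other *ISL1* cluster gave 2, and for *ROR2* KD days 0 to 7 (2), array weights, p under 0.01 and the other cluster gave 1. The change of the *ROR2* KD difference between days 7 and 14 (2) was called for 1 gene with quantile normalization, p under 0.01 or without those 4 arrays, and for 3 with the other cluster. Leaving out 1 array at a time gave 0 to 0 on days 0 and 7, 2 to 2 on day 14 and 6 to 7 on day 21. It gave 2 to 4, 2 to 3 and 6 to 6 for the 3 steps of control cells, 1 to 2, 1 to 3 and 4 to 5 for those of *ROR2* KD cells, and 0 to 0, 1 to 2 and 5 to 6 for the changes of the difference. The cause of these shifts was not tested, except that the filter tests fewer genes. With a replicate block, the counts were 2 on day 14 and 7 on day 21, and no count moved. Arrays of the same number in both lines correlated at -0.02 to 0.22 in their residuals, and 4 of 12 correlated best with their own number. With 3 arrays per group, this check cannot show whether such arrays share more than a number. Signals of *OLIG1*, *NKX2-2* and *NKX6-2* never exceeded background, which limits what their values show.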
